A study of Mus musculus with 16 samples.

Results

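The genes described here are 10 members of the sphingolipid pathway, chosen by name from the 54532 genes of the deposited tables: the enzymes Sptlc1, Sptlc2, Cers5, Cers6 and Degs1 of ceramide synthesis, the sphingomyelinases Smpd1 and Smpd3, the sphingosine kinases Sphk1 and Sphk2, and the sphingosine 1-phosphate (S1P) receptor S1pr1. All 10 were found in both the read count and the FPKM table, and all 10 passed the filter on low counts in every comparison. The list was drawn up with results of these libraries already known, and the values it rested on are not recorded, so counts over the list describe it and lend no independent support. RNA came from gonadal white fat of female C57BL/6 mice, an inbred strain. The bulk libraries fall into 6 groups, each of 1 fraction, diet and early life treatment. On the high-fat diet there were 3 stress and 3 control libraries of mature adipocytes, and 4 stress and 4 control libraries of preadipocytes. On the low-fat diet there were 1 stress and 1 control library of preadipocytes. Stress mice had been taken from the dam daily on postnatal days 2 to 16 and weaned on day 17, while control mice stayed undisturbed up to weaning on day 21. Neither adult age nor time on diet is stated in the labels. Mature adipocytes were obtained by collagenase digestion, spinning and filtering, and a magnetic sort followed. Which antibodies it used is not stated in the labels. Nor do they say whether replicate libraries stem from different animals, and the p-values therefore reflect only the spread among the libraries, part of which may be technical.

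Ceramide, the hub of sphingolipid metabolism, is made from serine and palmitoyl-CoA at the endoplasmic reticulum, or is released from sphingomyelin in membranes. Ceramidases turn it into sphingosine, which the sphingosine kinases phosphorylate to S1P, a lipid mediator read by G protein-coupled receptors. In fat, ceramide is best known for dampening insulin signalling, and S1P for its actions on endothelium and lymphocytes.

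Library totals ran from 14182130 to 23368821 counts, and the lowest count of a member in any library was 79 (Smpd3 in control adipocyte library 3). Control high-fat preadipocyte libraries 1 and 3 differed at 7.01% of genes, against 43.0% to 79.0% for the other 17 of 18 pairs within a group, so they were summed to 1 library in the fits and averaged in the means (n = 3 for that group). Control adipocyte libraries 1 and 3 held few rare transcripts, with 18091 and 15344 genes detected. Stress adipocyte library 2 was near control library 1, at 18400 genes, and the other adipocyte libraries had 20439 to 20964. The fits of the 10 members were also run without control adipocyte libraries 1 and 3. Of the 10 mature adipocyte markers examined, 10 were higher in adipocytes than in preadipocytes, and of the 10 progenitor markers 10 were lower. No library was at 0 for any of these 20 genes. Markers of other cells were present in both fractions: 10 of 12 endothelial markers were higher in adipocytes, while 8 of 8 mesothelial, 7 of 10 T and NK cell and 6 of 8 B cell markers were lower there. Going the other way were 1 endothelial marker, which was lower, and 1 B cell marker, which was higher. Of 8 mural markers 4 were higher and 1 lower. Summed B cell markers were not lower in adipocytes, at 497 to 1413 CPM (defined below) against 150 to 876 CPM in high-fat preadipocytes. In bulk RNA, fewer cells of a type and less RNA per cell cannot be told apart.

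Most members differed between the fractions. In mature adipocytes, against preadipocytes of the same diet, Smpd1 was 4.12-fold higher, S1pr1 3.38-fold, Degs1 1.85-fold, Sphk2 1.68-fold and Sptlc1 1.51-fold higher. Smpd3 was 6.10-fold lower, Sphk1 5.76-fold, Cers6 2.31-fold and Sptlc2 1.48-fold lower, and Cers5 did not pass the test. The test was edgeR's quasi-likelihood test over all 16679 genes with early life treatment as a covariate, with Benjamini-Hochberg adjustment at 0.05. It called 9 of the 10 members, 5 higher and 4 lower, where 61.3% of all genes tested were called, 26.4% higher and 35.0% lower. The median log2 fold change was 0.28 over the members and -0.25 over all genes. The libraries of the fractions did not overlap in CPM (counts relative to library size, scaled between libraries) for 5 members, 3 higher and 2 lower, against 38.1% of all genes, 18.8% higher and 19.3% lower. With control libraries alone 5 members were called, and with stress libraries alone 7.

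**Figure D1:**
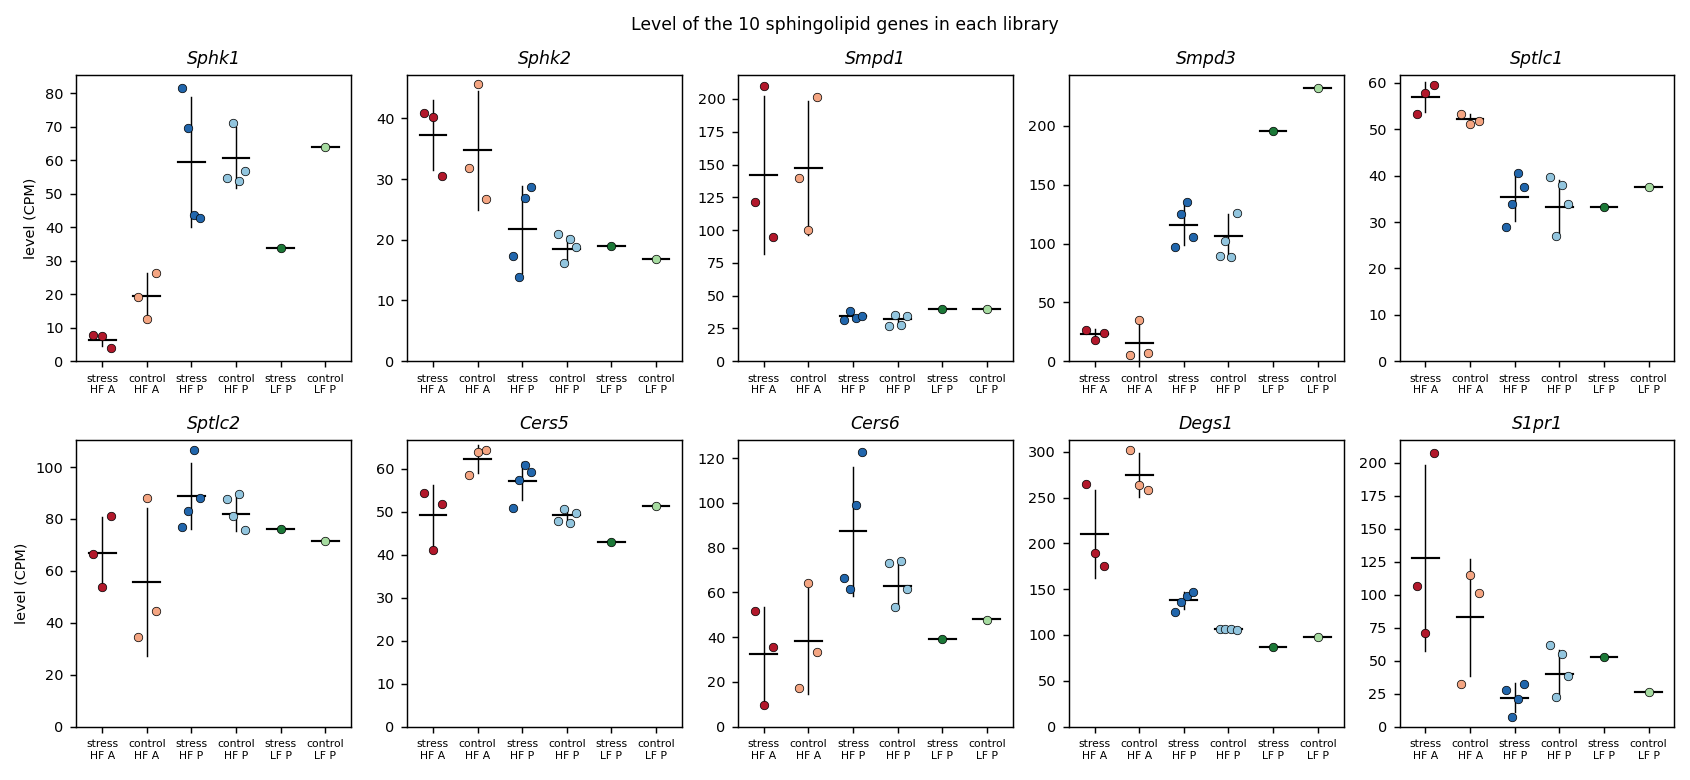
Level of each of the 10 genes (CPM, linear axis from 0) in each library, with groups on the horizontal axis (HF, high-fat; LF, low-fat; A, mature adipocytes; P, preadipocytes). Each point is a library, the bar is the group mean and the line 1 SD (n = 3 for control HF P, whose libraries 1 and 3 count as 1; no line where n = 1). Smpd1, Sptlc1 and Degs1 sit wholly higher, and Sphk1 and Smpd3 wholly lower, in HF adipocytes than in HF preadipocytes.

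**Figure D2:**
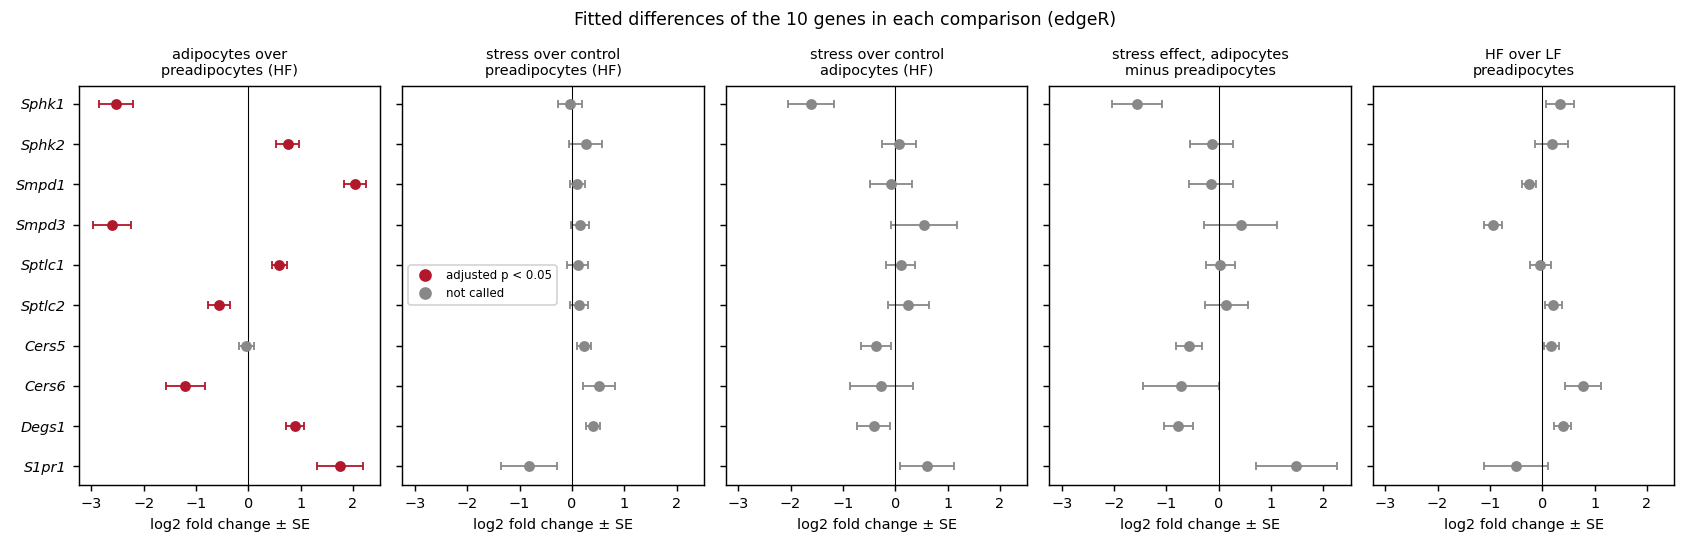
Log2 fold change of each gene ± its standard error in the 5 comparisons (HF, high-fat; LF, low-fat), with genes down the page. Red points passed an adjusted p of 0.05 in edgeR's test over all genes and grey points did not. Of the 10 genes, 9 are red in the comparison of fractions and none elsewhere.

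Ceramide synthesis starts with serine palmitoyltransferase, whose core is a dimer of the Sptlc1 and Sptlc2 products. These subunit genes moved in opposite directions between the fractions. Sptlc1 (ENSMUSG00000021468, chr13:53332748-53377397, minus strand, GRCm38) measured 53.3, 57.9 and 59.5 CPM in stress adipocytes and 53.3, 51.2 and 51.8 CPM in control adipocytes. In preadipocytes on the same diet it measured 29.0, 33.9, 40.6 and 37.6 CPM under stress and 39.6, 27.0, 37.9 and 34.0 CPM in controls. Every adipocyte library was above every preadipocyte library, with a log2 fold change of 0.59 ± 0.15 (SE; edgeR adjusted p = 0.00265). Sptlc2 (ENSMUSG00000021036, chr12:87305058-87388355, minus strand) measured 66.5, 53.7 and 81.0 CPM in stress adipocytes and 34.4, 87.9 and 44.4 CPM in control adipocytes, against 75.8 to 106 CPM in the 8 high-fat preadipocyte libraries. Its ranges overlapped through control adipocyte library 2 and stress adipocyte library 3. The log2 fold change was -0.56 ± 0.20 (edgeR adjusted p = 0.0252), and the call was lost in 12 of 23 other settings, among them the removal of control adipocyte libraries 1 and 3 (-0.24, adjusted p = 0.214).

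The ceramide synthases attach a fatty acid to the sphingoid base, and Cers5 and Cers6 share a preference for palmitoyl-CoA. Cers6 (ENSMUSG00000027035, chr2:68861441-69114282, plus strand) measured 51.7, 9.56 and 35.7 CPM in stress adipocytes and 17.2, 64.1 and 33.5 CPM in control adipocytes. In high-fat preadipocytes it measured 66.3, 61.6, 99.1 and 123 CPM under stress and 73.0, 53.7, 74.2 and 61.4 CPM in controls. Control adipocyte library 2 alone reached into the preadipocyte range. The 6 adipocyte libraries had the same order for Cers6 as for 10 summed macrophage markers. That sum ran from 1852 CPM in stress adipocyte library 2 to 7685 CPM in control adipocyte library 2. Of the 10 macrophage markers 0 were called between the fractions, and the part of macrophage RNA in the Cers6 values was not tested. Between fractions the log2 fold change of Cers6 was -1.21 ± 0.37 (edgeR adjusted p = 0.0116). It was not called without control adipocyte libraries 1 and 3 (-0.94, adjusted p = 0.0772), without stress preadipocyte libraries 3 and 4 (-0.84, adjusted p = 0.0738) or in control libraries alone (-0.74, adjusted p = 0.203). Cers5 (ENSMUSG00000023021, chr15:99734881-99772885, minus strand) was the flattest member, at 41.1 to 64.4 CPM in high-fat adipocytes and 47.4 to 60.9 CPM in high-fat preadipocytes. Its log2 fold change was -0.04 ± 0.14 (edgeR adjusted p = 0.830), with the sign kept in 12 of 23 other settings.

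Degs1 encodes the desaturase that turns dihydroceramide into ceramide in the last step of the synthesis. Degs1 (ENSMUSG00000038633, chr1:182275772-182282804, minus strand) measured 265, 190 and 176 CPM in stress adipocytes and 302, 264 and 259 CPM in control adipocytes. High-fat preadipocytes held 125, 136, 143 and 147 CPM under stress and 106, 107, 107 and 105 CPM in controls. The fractions did not overlap, and the log2 fold change was 0.89 ± 0.17 (edgeR adjusted p = 0.000477), called in 23 of 23 other settings. Per length, Degs1 was the highest member in every high-fat group: its FPKM averaged 75.6 ± 14.5 in stress adipocytes and 104 ± 14 in control adipocytes (SD, n = 3 each), 54.3 ± 4.49 in stress preadipocytes (n = 4) and 41.3 ± 0.895 in control preadipocytes (n = 3). In both low-fat libraries Smpd3 was above it.

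Sphingomyelinases release ceramide from sphingomyelin. Smpd1 encodes the acid enzyme of lysosomes, which is also secreted, and Smpd3 encodes a neutral enzyme of the plasma membrane and Golgi. The pair showed the widest opposition among the members. Smpd1 (ENSMUSG00000037049, chr7:105554360-105558389, plus strand) measured 122, 210 and 94.6 CPM in stress adipocytes and 140, 99.8 and 201 CPM in control adipocytes, against 27.1 to 38.2 CPM in the 8 high-fat preadipocyte libraries. The lowest adipocyte library was thus well above the highest preadipocyte library, and the preadipocyte libraries lay close together. Smpd1 had a log2 fold change of 2.04 ± 0.21 (edgeR adjusted p = 1.43e-06). Smpd3 (ENSMUSG00000031906, chr8:106252548-106337988, minus strand) measured 26.7, 18.0 and 24.2 CPM in stress adipocytes and 5.24, 34.7 and 6.79 CPM in control adipocytes. In high-fat preadipocytes it measured 97.2, 125, 135 and 106 CPM under stress and 89.3, 102, 88.3 and 126 CPM in controls. The low values in control adipocytes are those of libraries 1 and 3, which held few rare transcripts, and library 2 was the highest of all adipocyte libraries. Summed adipocyte markers were 60630 and 40930 CPM in libraries 1 and 3, 18970 CPM in library 2 and 19610 to 41640 CPM in stress adipocytes. Library 2 also had the highest macrophage sum of the adipocyte libraries, 7685 CPM. The part of any of these differences in the Smpd3 values was not tested. The log2 fold change between fractions was -2.61 ± 0.37 (edgeR adjusted p = 2.75e-05), called in 23 of 23 other settings at -3.07 to -2.10.

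The sphingosine kinases make S1P. Sphk1, mostly cytosolic, is a growth factor-responsive enzyme that moves to the plasma membrane, and Sphk2 works in the nucleus and at internal membranes. Upstream sequence of 4 members is shown to set these kinases, which went opposite ways, beside Smpd1, the member with the smallest p among those that were higher in adipocytes, and Cers6, which was lower. Each line gives the 250 bases before a RefSeq transcription start (assembly GRCm38.p6), none of them inside an exon that GENCODE M21 annotates on that strand, with motif matches in capitals.
Sphk1 (chr11:116532194-116532443, plus strand): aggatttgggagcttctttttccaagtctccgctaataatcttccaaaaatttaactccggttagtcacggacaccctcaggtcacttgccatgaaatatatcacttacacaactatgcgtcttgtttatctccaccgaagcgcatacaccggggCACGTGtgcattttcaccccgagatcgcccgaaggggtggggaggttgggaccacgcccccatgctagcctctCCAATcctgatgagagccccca
Sphk2 (chr7:45718003-45718252, minus strand): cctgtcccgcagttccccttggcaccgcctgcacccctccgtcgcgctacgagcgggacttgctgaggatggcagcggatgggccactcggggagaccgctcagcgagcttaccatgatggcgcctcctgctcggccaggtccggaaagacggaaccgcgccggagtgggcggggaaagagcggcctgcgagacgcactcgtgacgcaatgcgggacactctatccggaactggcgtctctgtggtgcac
Smpd1 (chr7:105554110-105554359, plus strand): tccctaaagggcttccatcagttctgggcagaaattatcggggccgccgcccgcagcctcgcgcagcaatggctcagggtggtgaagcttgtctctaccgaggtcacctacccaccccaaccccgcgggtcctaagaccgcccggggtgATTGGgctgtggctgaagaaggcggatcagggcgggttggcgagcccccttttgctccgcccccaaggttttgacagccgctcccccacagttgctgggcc
Cers6 (chr2:68861191-68861440, plus strand): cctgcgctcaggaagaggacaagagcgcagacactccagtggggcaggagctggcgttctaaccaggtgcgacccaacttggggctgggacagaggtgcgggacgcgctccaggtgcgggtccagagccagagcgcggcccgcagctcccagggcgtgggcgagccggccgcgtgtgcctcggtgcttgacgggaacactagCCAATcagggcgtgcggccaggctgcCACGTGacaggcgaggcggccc

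Each sequence reads 5′ to 3′ along the gene's own strand, and the search covered both strands of windows of 300 bases, from 250 before to 50 after each start. Windows were found for 8 of the 10 members, 13 in all, since Sphk1 has several starts and Sphk2 more than 1; Smpd3 and S1pr1 are named only. The E-box CACGTG occurred in 3 of 8 members (Sphk1, Cers6 and Degs1), against 8.09% of 27025 genes with a window. It was in 4 of 13 windows, against 7.15% of all 32851 windows, but 2 of the 4 are overlapping Sphk1 windows that hold the same site. The E-box began 95 bases before the Sphk1 start shown and 22 bases before the Cers6 start. The Sphk1 start shown lies inside the annotated gene, downstream of its first start, and the Sphk2 window shown held no match. The CCAAT box (CCAAT, or its reverse complement ATTGG) occurred in 6 of 8 members, against 41.1% of genes with a window. It was in 7 of 13 windows, 2 of them overlapping Sphk1 windows with the same site, and in 37.4% of all windows. It stands 101 bases before the Smpd1 start on the opposite strand. The other Sphk2 window, not shown and also outside annotated exons before its start, held 2 CCAAT matches, 74 and 46 bases before that start. Other Sphk1 starts carried an AP-1 motif TGANTCA, in 2 overlapping windows that hold the same site, and a TATA box TATAAA, in 1 window. All windows held these at 7.81% and 13.6%, and genes with a window at 8.97% and 15.7%. The C/EBP pattern TTGCNNAA (10.8% of all windows) and the DR1 element of nuclear receptors (0.0396%) were in none of the 13 windows. No motif overlapped another in the sequences shown. Genes with an E-box moved both ways, Sphk1 and Cers6 lower and Degs1 higher, and the matches are a description of letters, not of bound sites.

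Sphk1 (ENSMUSG00000061878, chr11:116530925-116536674, plus strand) measured 7.68, 7.59 and 4.08 CPM in stress adipocytes and 19.2, 12.7 and 26.3 CPM in control adipocytes. High-fat preadipocytes held 81.7, 69.5, 43.7 and 42.7 CPM under stress and 54.7, 71.1, 53.7 and 56.8 CPM in controls. No adipocyte library reached the lowest preadipocyte library. The log2 fold change was -2.53 ± 0.33 (edgeR adjusted p = 1.26e-05), with -3.15 in stress libraries alone and -1.65 in control libraries alone, both called. Sphk2 (ENSMUSG00000057342, chr7:45709467-45718002, minus strand) went the other way, with 40.9, 40.2 and 30.6 CPM in stress adipocytes and 31.8, 45.6 and 26.7 CPM in control adipocytes, against 13.8 to 28.6 CPM in high-fat preadipocytes. Stress preadipocyte libraries 3 and 4 (26.9 and 28.6 CPM) reached the lowest adipocyte library. Its log2 fold change was 0.75 ± 0.22 (edgeR adjusted p = 0.00723), and in stress libraries alone the call was lost (0.79, adjusted p = 0.0666).

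Ratios within a library do not depend on scaling between libraries, and they show how far each pair of related enzymes turned over. Sphk1 over Sphk2, in FPKM, ran from 0.116 to 0.857 in the 6 high-fat adipocyte libraries and from 1.30 to 4.39 in the 8 high-fat preadipocyte libraries. Sphk2 was thus the higher kinase per length in all adipocyte libraries and Sphk1 in all preadipocyte libraries, those on the low-fat diet included (1.55 under stress and 3.30 in control). Smpd3 over Smpd1 ran from 0.0215 to 0.222 in adipocytes and from 1.86 to 2.64 in preadipocytes, and was 3.16 and 3.73 in the stress and control low-fat libraries. Sptlc2 over Sptlc1 ran from 0.282 to 0.752 in adipocytes and from 0.970 to 1.31 in preadipocytes. Cers6 over Cers5 ran from 0.0930 to 0.401 in adipocytes and from 0.424 to 0.827 in preadipocytes, so here the ranges nearly met. None of these 4 ratios overlapped between the fractions on the high-fat diet. Of single genes 38.1% did not overlap there, and no such share was taken for ratios. In the stress and control low-fat preadipocyte libraries Sptlc2 over Sptlc1 was 1.0 and 0.834. Cers6 over Cers5 was 0.363 and 0.373 in them, inside the range of the high-fat adipocytes. These ratios rest on the same libraries as the fold changes and were not tested.

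**Figure D3:**
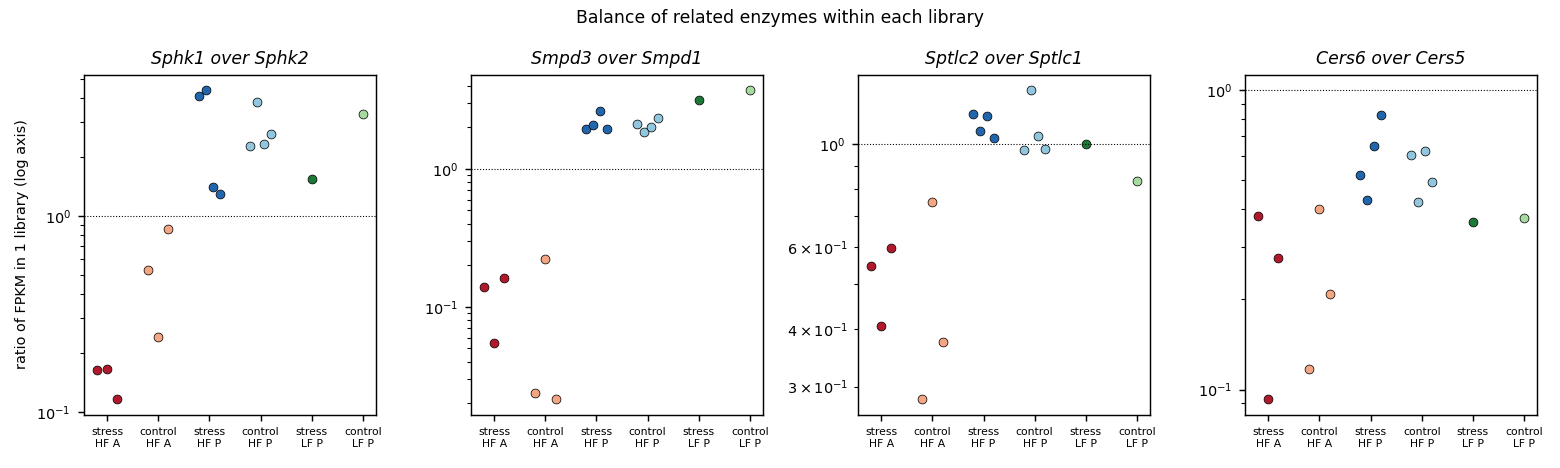
Ratio of FPKM of 2 related enzymes within each library (log axes, a separate scale in each panel; dotted line at 1), by group (HF, high-fat; LF, low-fat; A, mature adipocytes; P, preadipocytes). Sphk1 over Sphk2 and Smpd3 over Smpd1 lie under 1 in all 6 adipocyte libraries and over 1 in all 10 preadipocyte libraries.

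S1pr1 encodes the Gi-coupled S1P receptor that guards endothelial barriers and lets lymphocytes leave lymphoid organs. S1pr1 (ENSMUSG00000045092, chr3:115710433-115715072, minus strand) measured 106, 71.1 and 208 CPM in stress adipocytes and 32.5, 115 and 101 CPM in control adipocytes. In high-fat preadipocytes it measured 28.0, 7.06, 20.6 and 32.2 CPM under stress and 61.7, 22.8, 55.1 and 38.1 CPM in controls. Control adipocyte library 1 fell inside the preadipocyte range, and the other 5 adipocyte libraries were above it. S1pr1 had a log2 fold change of 1.76 ± 0.44 (edgeR adjusted p = 0.00301), at 2.53 in stress libraries alone, and 1.03 in control libraries alone, where it was not called (adjusted p = 0.131). By group mean the order, from the highest, was stress adipocytes (39.0 ± 20.7 FPKM), control adipocytes (26.2 ± 13.2 FPKM; SD, n = 3 each), the low-fat stress library (18.2 FPKM), control high-fat preadipocytes (13.1 ± 5.76 FPKM, n = 3), the low-fat control library (8.57 FPKM) and stress high-fat preadipocytes (7.39 ± 3.76 FPKM, n = 4). Neighbours in that order lay within each other's spread or had no spread to compare.

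Endothelial transcripts moved with S1pr1. The summed level of 12 endothelial markers was 1190, 1355 and 2712 CPM in stress adipocytes and 521, 1647 and 2668 CPM in control adipocytes, against 241 to 522 CPM in stress and 439 to 1000 CPM in control high-fat preadipocytes. None of the 12 was at 0 in any library. Control adipocyte library 1, the lowest adipocyte library for S1pr1, was also the lowest for this sum. Over 15 samples (near-identical pair as 1) and 9716 genes with a mean of at least 3 on the log2 CPM scale, the genes most like S1pr1 were Adgrl4 (Pearson r = 0.972), Pecam1 (0.960) and Cdh5 (0.957). Within the 9 preadipocyte samples alone these values were 0.939, 0.930 and 0.911. Pecam1 and Cdh5 encode endothelial junction proteins and stood on the marker list. The 12 markers ranged from -0.33 (Tek, an angiopoietin receptor) to 0.960. The samples share fraction, depth and tissue, so these are descriptions, and the part of endothelial cells in the S1pr1 values was not tested. For Sphk1 the most alike genes were Errfi1 (0.984), Eya2 (0.976) and Myc (0.975), at 0.772, 0.717 and 0.839 within the preadipocyte samples.

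**Figure D4:**
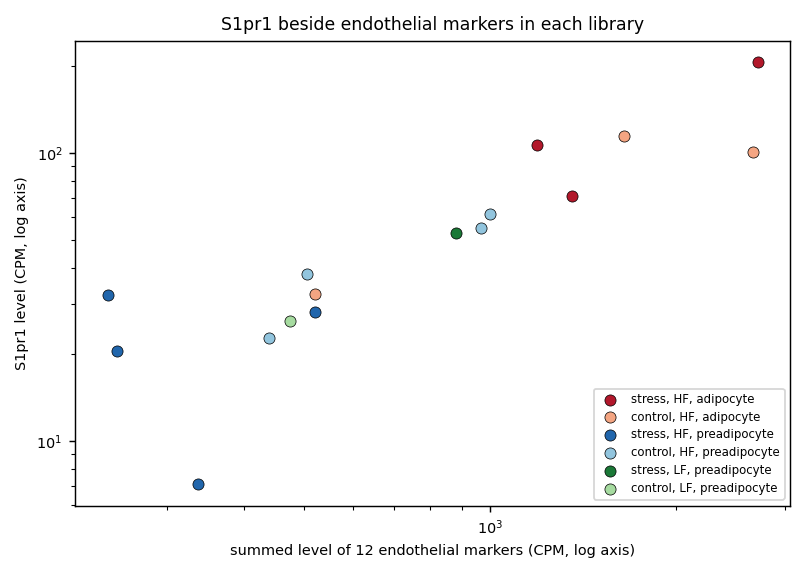
S1pr1 level against the summed level of 12 endothelial markers (CPM, both axes log) with 1 point per library, coloured by group (HF, high-fat; LF, low-fat). Control adipocyte library 1, at 521 CPM of markers and 32.5 CPM of S1pr1, lies among the preadipocyte libraries.

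Around the members stand 71 other genes of the pathway, of which 64 passed the filter on low counts in the comparison of fractions. In adipocytes 14 were higher and 20 lower, and 30 did not pass the test, with a median log2 fold change of -0.13 against -0.25 over all genes. These shares are near those of all genes tested, 26.4% higher and 35.0% lower, against which the counts by class are also to be set; no class was tested as a group. Of the genes that feed or restrain ceramide synthesis, 5 of 10 tested rose, 1 fell and 4 did not pass, with a median of 0.64. They included Ormdl3 (2.52 ± 0.24, adjusted p = 6.35e-07), an inhibitor of serine palmitoyltransferase, Sptlc3 (3.65 ± 1.43, adjusted p = 0.0374), an alternative catalytic subunit of it, and the ceramide synthases Cers4 and Cers2 for longer acyl chains. The 1 that fell was Cers1 (-3.05 ± 0.56, adjusted p = 0.000279), a ceramide synthase best known from brain and muscle, at 0.05 to 0.51 CPM in adipocytes and 0.86 to 2.40 CPM in high-fat preadipocytes. Sptlc3 was uneven: it measured 4.90, 13.8 and 27.5 CPM in stress adipocytes and 3.79, 11.8 and 0 CPM in control adipocytes, where 3 counts in library 3 would be 0.258 CPM. In high-fat preadipocytes it measured 6.45 and 7.30 CPM in the near-identical control libraries 1 and 3, and 0.05 to 0.56 CPM in the other 6. Those 2 libraries also had the highest summed adipocyte markers of the high-fat preadipocyte libraries, 822 and 788 CPM, against 486 to 685 CPM. Their urothelial sums were highest as well, 555 and 547 CPM against 1.91 to 51.3 CPM. So were their mesothelial sums, 1258 and 1232 CPM against 131 to 897 CPM. Endothelial sums (1000 and 968 CPM against 241 to 522 CPM) and B cell sums (876 and 825 CPM against 150 to 658 CPM) were highest too. Their progenitor sums were lowest, 18170 and 17510 CPM against 23730 to 36850 CPM. The part of RNA from any of these cells in the Sptlc3 values was not tested.

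Among genes that break ceramide down or carry ceramide phosphate, 4 of 8 tested rose, 1 fell and 3 did not pass (median 0.27; all genes 26.4% higher and 35.0% lower). Adipor2, an adiponectin receptor with ceramidase activity, was at 737, 1276 and 928 CPM in stress adipocytes and 591, 542 and 782 CPM in control adipocytes, against 67.7 to 114 CPM in high-fat preadipocytes. No library overlapped, with a log2 fold change of 3.18 ± 0.23 (edgeR adjusted p = 6.33e-08). Acer2, an alkaline ceramidase of the Golgi, rose by 2.08 ± 0.46 (adjusted p = 0.00117). Asah1, the acid ceramidase that takes up the product of Smpd1 in lysosomes, had a log2 fold change of -0.42 ± 0.23 (adjusted p = 0.120). Of the 10 other sphingomyelin genes tested, Smpd2 rose, Sgms2 and Nsmaf fell and 7 did not pass. Sgms2, a sphingomyelin synthase of the plasma membrane, was at 9.08 to 17.6 CPM in adipocytes and 29.4 to 83.9 CPM in high-fat preadipocytes (-2.13 ± 0.27, adjusted p = 1.14e-05).

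Of 22 glycosphingolipid genes tested, 3 rose, 9 fell and 10 did not pass. Their median of -0.08 was above that of all genes (-0.25), and 35.0% of all genes were called lower. Gal3st1, the sulfotransferase of sulfatide synthesis (-3.68 ± 0.77, adjusted p = 0.000779), St8sia1, a ganglioside sialyltransferase (-3.11 ± 1.06, adjusted p = 0.0188), and B4galt5, a lactosylceramide synthase (-2.38 ± 0.27, adjusted p = 4.16e-06), fell the most. Gal3st1 and St8sia1 were near the floor, with 0 to 9 counts in each adipocyte library, and their fold changes depend on how such counts are handled. Ugcg, the first enzyme of this branch, also fell (-2.13 ± 0.26). Gm2a, an activator protein of lysosomal ganglioside breakdown, rose by 1.45 ± 0.21 (adjusted p = 3.45e-05).

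Of the genes that handle or sense S1P, 1 of 14 tested rose, 7 fell and 6 did not pass, where 26.4% of all genes were called higher and 35.0% lower. Their median was -1.06, against -0.25 over all genes. Unlike S1pr1, which rose, the receptors S1pr2 (-1.70 ± 0.31, adjusted p = 0.000291) and S1pr3 (-1.91 ± 0.46, adjusted p = 0.00248) fell; the difference between receptors was not tested. S1pr3 measured 9.85 to 28.0 CPM in stress adipocytes and 2.62 to 29.1 CPM in control adipocytes, against 38.2 to 120 CPM in stress and 34.5 to 55.7 CPM in control high-fat preadipocytes. The largest falls were in Mfsd2b (-2.79 ± 0.77, adjusted p = 0.00556), the S1P exporter of red cells and platelets, and Apom (-2.33 ± 0.73, adjusted p = 0.0122), the carrier of S1P on lipoprotein, both near the floor in adipocytes at 0 to 1.01 CPM. Of 5 erythroid markers tested, 2 were lower in adipocytes as well. Plpp2, a lipid phosphate phosphatase, was the gene that rose (1.94 ± 0.36, adjusted p = 0.000282). The S1P lyase Sgpl1, which ends the pathway, had a log2 fold change of -0.08 ± 0.26 (adjusted p = 0.814). All adjusted p-values of the wider list are from the same edgeR fit over all genes.

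**Figure D5:**
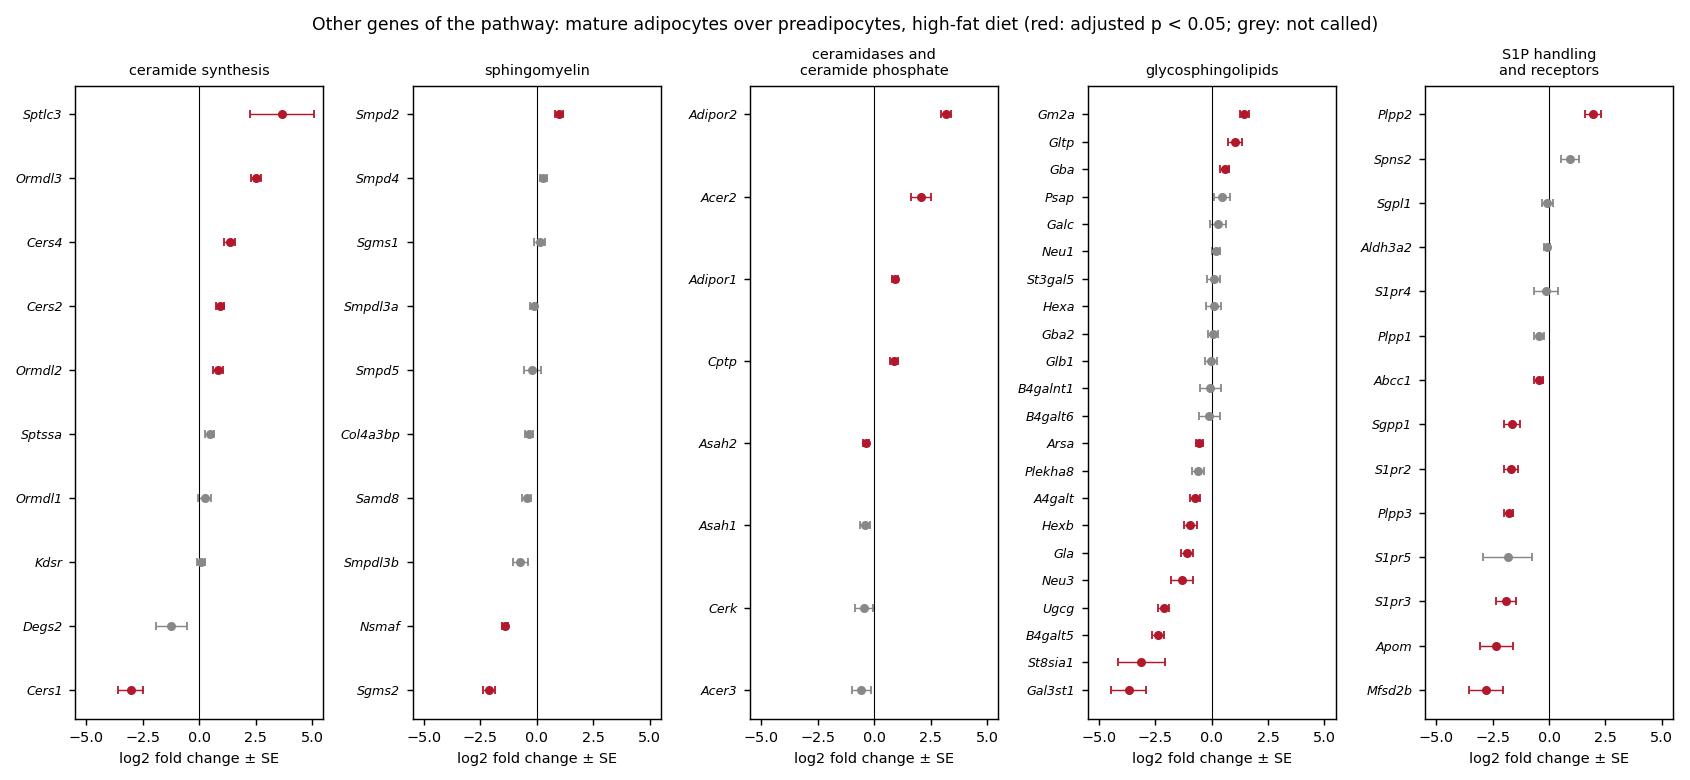
Log2 fold change ± standard error, mature adipocytes over preadipocytes on the high-fat diet, of the 64 other pathway genes that passed the filter, sorted within 5 classes. Red points passed an adjusted p of 0.05 and grey points did not; 14 red points lie above 0 and 20 below it.

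Early life stress was examined within each fraction on the high-fat diet. In preadipocytes 0 of the 10 members were called, where 0% of 17129 genes were. The smallest adjusted p over all genes was 0.973, 496 genes had an unadjusted p under 0.05, and DESeq2 called 4 genes, none a member. Degs1 and Cers5 did not overlap between groups, both higher under stress, against 2.62% of all genes that did not overlap, 1.23% higher and 1.39% lower. Degs1, at 125, 136, 143 and 147 CPM under stress and 106, 107, 107 and 105 CPM in controls, had a log2 fold change of 0.40 ± 0.13 (edgeR unadjusted p = 0.0172, adjusted p = 0.973). The 4 control libraries lay within 2 CPM of each other, and all 4 stress libraries were above them. Control libraries 1 and 3 are the near-identical pair, which counts as 2 libraries wherever overlap is stated. Cers5 measured 50.8, 57.4, 60.9 and 59.1 CPM under stress and 47.8, 50.6, 47.4 and 49.6 CPM in controls (0.24 ± 0.13). The lowest stress library and the highest control library were nearly level. S1pr1 had a log2 fold change of -0.82 ± 0.53 under stress (edgeR adjusted p = 0.973) with overlapping groups, and all 12 endothelial markers also had a negative fold change there (median -1.14, 0 called). Cers6 was highest in stress libraries 3 and 4, at 99.1 and 123 CPM, and Degs1, Cers5 and Sphk2 were highest there too. These 2 libraries were also highest for 10 summed macrophage markers, at 7142 and 8168 CPM against 1480 to 4243 CPM in the other 6 high-fat preadipocyte libraries. The part of macrophage RNA in the values of these members was not tested. The fold changes of the other members lay between -0.03 (Sphk1) and 0.51 (Cers6). Without stress libraries 3 and 4, Cers6 had -0.04, Sphk2 -0.31, Sptlc1 -0.15, Sptlc2 -0.09 and Sphk1 0.26, each of the opposite sign. Degs1 had 0.24, Cers5 0.07, Smpd1 0.05 and Smpd3 0.01, each smaller with the sign kept, and S1pr1 had -1.22. None of these was called. Of the wider list 0 of 64 tested genes were called.

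In mature adipocytes, Sphk1 showed the largest stress difference of the members without passing the test. It measured 7.68, 7.59 and 4.08 CPM under stress and 19.2, 12.7 and 26.3 CPM in controls, which do not overlap. Stress over control gave -1.62 ± 0.44 on the log2 scale, a 3.07-fold lower level (edgeR unadjusted p = 0.00398, adjusted p = 1). Without control adipocyte libraries 1 and 3, which leaves 1 control library assumed to vary like the stress libraries, it was -0.98 (adjusted p = 0.999). Those 2 libraries had the higher Sphk1 values and also the highest summed urothelial markers of the adipocyte libraries, 180 and 92.3 CPM against 3.07 to 4.59 CPM in the other 4. Their mesothelial sums were likewise highest, 142 and 119 CPM against 40.4 to 51.4 CPM. The part of RNA from such cells in the Sphk1 values was not tested. Cers5, at 54.4, 41.1 and 51.8 CPM under stress and 58.5, 63.8 and 64.4 CPM in controls, did not overlap either (-0.37 ± 0.29). Of all genes 7.06% did not overlap, 4.13% higher and 2.93% lower, and 2 of 10 members is not read as a result about the list. In edgeR 0 of 10 members and 0% of 14485 genes were called; 417 genes had an unadjusted p under 0.05, and DESeq2 called 9 genes, none a member. Smpd3 (0.54 ± 0.63) turned with the libraries left out, to 1.90 without control library 2 and -0.60 without control libraries 1 and 3. Of the wider list 0 of 58 tested genes were called.

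Whether the stress effect differed between the fractions was tested as an interaction in the high-fat libraries. It called 0 of 10 members and 0% of 17948 genes, with 873 genes at an unadjusted p under 0.05, and DESeq2 called 3 genes, none a member. The stress effect was lower in adipocytes than in preadipocytes for Sphk1 (-1.57 ± 0.47, unadjusted p = 0.00525), Degs1 (-0.77 ± 0.28, unadjusted p = 0.0160) and Cers5 (-0.57 ± 0.25, unadjusted p = 0.0412), all at an adjusted p of 0.934 in edgeR's test. For Sphk1 it was -0.91 without control adipocyte libraries 1 and 3. S1pr1 went the other way (1.48 ± 0.78, edgeR unadjusted p = 0.0780, adjusted p = 0.934). In this interaction 12 of 12 endothelial markers had a positive value (median 1.47), and so had 5 of 5 erythroid markers (median 1.53). Macrophage markers had a negative one in 10 of 10 cases (median -0.94). None of these markers was called, and the part of such cells in the members' values was not tested. Of the wider list 0 of 67 tested genes were called.

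Diet could be compared in preadipocytes, with 8 high-fat and 2 low-fat libraries. Smpd3 measured 97.2, 125, 135 and 106 CPM in stress and 89.3, 102, 88.3 and 126 CPM in control libraries on the high-fat diet, against 196 CPM in the stress and 232 CPM in the control library on the low-fat diet. All 8 high-fat libraries were below both low-fat libraries. The log2 fold change was -0.95 ± 0.17, or 1.93-fold lower on the high-fat diet (edgeR unadjusted p = 0.000359, adjusted p = 0.320; DESeq2 adjusted p = 0.00154, the only member it called). In edgeR 0 of 10 members and 0% of 18468 genes were called, with 2360 genes at an unadjusted p under 0.05; DESeq2 called 422 genes. Smpd1 was also lower on the high-fat diet without overlap (27.1 to 38.2 CPM against 39.6 and 39.7 CPM), and Cers6 (53.7 to 123 CPM against 39.1 and 47.9 CPM) and Degs1 (105 to 147 CPM against 87.3 and 97.8 CPM) were higher without overlap. That makes 4 of 10 members, against 15.5% of all genes, 7.06% higher and 8.41% lower. Their fold changes were -0.25 ± 0.13, 0.78 ± 0.34 and 0.39 ± 0.16, and none passed the edgeR test (adjusted p = 0.439, 0.393 and 0.366). None of the marker genes was called, but the fold changes of several lists had mostly 1 sign. Macrophage markers had a positive fold change in 10 of 10 cases (median 1.45), mature adipocyte markers in 9 of 10 (median 0.56) and mesothelial markers in 7 of 8 (median 1.25). Progenitor markers had a negative one in 8 of 10 cases (median -0.32) and endothelial markers in 12 of 12 (median -0.71). B cell markers had a positive one in 7 of 8 (median 0.57), and erythroid markers a negative one in 5 of 5 (median -1.48) and urothelial markers in 5 of 6 (median -2.78). The part of these cells in the members' values was not tested. The fold change of S1pr1 changed sign with the low-fat library left out: it was -1.26 without the control library and 0.63 without the stress library. Of the wider list 0 of 67 tested genes were called, with a median of 0.27 against 0.02 over all genes.

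On the low-fat diet there was 1 stress and 1 control preadipocyte library, so no difference between them has a replicate check. S1pr1 had 1151 counts or 52.7 CPM (exact Poisson interval 49.7 to 55.9) in the stress library and 632 counts or 26.2 CPM (24.2 to 28.3) in the control library, a log2 ratio of 1.01. The summed endothelial markers were 882 CPM in the stress library and 476 CPM in the control library. Sphk1 was at 33.8 CPM (31.4 to 36.3) in the stress library and 64.0 CPM (60.9 to 67.3) in the control library, a log2 ratio of -0.92. The other 8 members had log2 ratios of -0.29 to 0.17. Among 9480 genes reaching 10 CPM in at least 1 of both libraries, 2.41% differed by 2-fold or more, and the median log2 ratio was -0.09. The 95% intervals cover counting error only.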

How the data were processed

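The authors deposited read counts per gene and FPKM values for 16 bulk RNA libraries, with gene coordinates on GRCm38. Per the submitters' processing notes the tools were STAR 2.6.1d, DESeq2 1.20.0 and edgeR 3.24.3. No source used here gives the read counter, whether it used strand, or the annotation release, so reads of overlapping or antisense genes cannot be told apart. The deposited FPKM equal counts per gene length and library total, multiplied by a factor of each library between 0.860 and 1.255.

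The counts were tested in R 4.3.3 with edgeR 4.0.16 (filterByExpr, TMM, robust quasi-likelihood fit, Benjamini-Hochberg adjustment at 0.05 over all genes), and the tests were tried on simulated counts. CPM are counts scaled by TMM factors over all 16 libraries. Stress was fitted within each fraction; fraction and diet had early life treatment as a covariate. Near-identical control preadipocyte libraries 1 and 3 were summed. Alternatives were DESeq2 1.42.0, limma 3.58.1 on log2(FPKM + 0.1), RLE factors, no filter, a replicate block, libraries left out, and, chosen after seeing the data, stress preadipocyte libraries 3 and 4 left out.

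The members and lists were chosen with earlier results of these data known. All members are named; of the wider list, the 6 called genes with the largest rise and fall in each comparison, with the others named here chosen after their values were seen; and the 3 genes most alike S1pr1 and Sphk1. Intervals cover counting error only.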

Additional observations from a re-analysis of the deposited data

Results flagged for a closer look

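Members were picked out whose stress difference in the low-fat pair was opposite in sign to that of all 4 high-fat stress preadipocyte libraries. Each of those 4 was set against the high-fat control mean, so stress and control libraries could still overlap. This difference between diets was not tested, and the low-fat diet has 1 library per treatment. For S1pr1 the log2 ratio of stress over control was 1.01 on the low-fat diet, while the 4 high-fat stress libraries stood at -2.49 to -0.30 relative to the high-fat control mean. For Cers5 it was -0.25 on the low-fat diet, against 0.05 to 0.31 on the high-fat diet. For Degs1 it was -0.16 on the low-fat diet, against 0.24 to 0.46 on the high-fat diet. The median over 9480 genes in the low-fat pair was -0.09, near the Degs1 value. In stress high-fat preadipocytes, the only group counted as 4 samples, an outlier test flagged no library for any of the 10 members. With 4 libraries such a test has little power, so it cannot show that no library deviated. S1pr1 measured 7.06 CPM in stress library 2, against 20.6, 28.0 and 32.2 CPM in the other 3. The other groups were too small for this test.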

How the results depend on the processing

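In the comparison of fractions, the 23 alternatives kept the direction of the 9 called members. With control libraries alone 5 members and 5998 genes were called, against 9 and 10231; leaving out 1 library at a time gave 8 to 9 members and 9710 to 10663 genes. Sphk1, Smpd1, Smpd3 and Degs1 were called in all 23, Sptlc2 in 11, Cers6 in 20, and Sphk2, Sptlc1 and S1pr1 in 22 each. The cause was not tested. For stress in preadipocytes DESeq2 called 4 genes. For stress in adipocytes DESeq2 called 9, the fit with no filter 51, and leaving out 1 library gave 0 to 9, the 9 without control library 2. For the interaction DESeq2 called 3. For diet DESeq2 called 422 genes and 1 member, the fit with no filter 1, limma on log2 FPKM 1, and leaving out 1 library gave 0 to 1, the 1 without control high-fat library 4. No member was called under any other alternative in these 4 comparisons. For the 4 within-library ratios, the log2 difference between fractions was nearly unchanged with counts without length scaling. For Sphk1 over Sphk2 it was -3.287 with FPKM and -3.283 with counts. Gene length is the same in every library and cancels in that difference, so this comparison could not test the ratios.

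Replicate numbers of the labels showed no clear pairing of the samples. Correlations of same-numbered libraries between groups ran from -0.318 to 0.442, and the best match was the own number in 2 of 4, 0 of 3, 1 of 3 and 1 of 3 libraries. Only the last 2, adipocytes against preadipocytes within a treatment, could show shared animals. With 3 libraries each they are too few to decide. With the replicate block, and with the near-identical preadipocyte libraries kept as separate samples in every fit that holds them, so that both choices changed at once, 8 members and 10897 genes were called between fractions, 2 genes for stress in preadipocytes, 0 for stress in adipocytes, 0 for the interaction and 2 for diet, with 0 members in the last 4.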
